A study of Homo sapiens with 24 samples.

Results

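The genes described here encode the subunits of the oxidative phosphorylation complexes, 84 of them in the nucleus and 13 in the mitochondrial genome. They were taken from the table of raw counts by symbol: the prefixes NDUFA, NDUFB, NDUFC, NDUFS, NDUFV, UQCR, COX4 to COX8, ATP5F and ATP5M, the genes SDHA to SDHD and CYC1, and the 13 protein-coding MT- genes. Of 60617 genes in the table, 279 matched these names, and 160 pseudogenes, 14 NDUFAF assembly factors, 6 noncoding genes and 2 readthrough genes (NDUFC2-KCTD14 and ATP5MF-PTCD1) were set aside, which left 97. The rule uses names only and no measured value, although it was set with earlier results of these data known. The prefixes leave out ATP5PB, ATP5PD, ATP5PF, ATP5PO and ATP5IF1, which are given apart.

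MDA686TU, a line of head and neck squamous carcinoma cells, was grown for 24 h in 4 groups of 6 replicate libraries: untreated control, 40 µM EGCG, 15 µM resveratrol, and both compounds at the same doses. EGCG (epigallocatechin gallate) is the main polyphenol of green tea, and resveratrol is a phenolic compound of grapes. Total RNA was sequenced as stranded, poly(A)-selected libraries with reads of 50 bases from each end. Resveratrol was kept in DMSO and EGCG in water, and no solvent is named for the control, so resveratrol and its solvent cannot be told apart. All groups are the same single line, and nothing in the labels says whether the replicates were separate cultures, so the p-values measure the spread between these samples.

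Oxidative phosphorylation takes electrons from NADH at complex I and from succinate at complex II, passes them through complex III and cytochrome c to oxygen at complex IV, and uses the proton gradient made on the way to drive ATP synthase, complex V. Complexes I, III, IV and V are mosaics of proteins made in the cytosol from nuclear genes and proteins made inside the mitochondrion from the mitochondrial genome, while complex II is nuclear in full. Mitochondrial mRNAs are cut out of long transcripts of both strands of the circular genome, so that their levels are set by different steps from those of nuclear mRNAs. Squamous carcinoma lines use both glycolysis and oxidative phosphorylation.

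The libraries held 7034872 to 11735574 counts. Of the 97 genes, 90 had counts enough to test (77 nuclear and 13 mitochondrial), beside 15476 tested genes in all. The 7 others are tissue-restricted isoforms: COX4I2, COX6A2, COX7A1 and COX7B2 had no count in any library, and COX8C, COX6B2 and ATP5MGL had 3, 48 and 90 counts over all 24. Squamous epithelial markers were high throughout, with summed FPKM of 5528 to 7154, and leukocyte and endothelial markers were at most 0.183 and 0.245 summed FPKM. The summed squamous markers moved with the treatment, from 6671 to 6998 FPKM in control to 5533 to 5824 with resveratrol, and the summed fibroblast markers, from 13.1 to 15.8 in control to 15.4 to 18.4. The fibroblast sum was almost wholly COL1A1, at a median of 15.2 FPKM over all libraries, and the next marker, LUM, had 0.302. The part of these shifts in the results below was not tested.

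In untreated cells the highest levels per length were those of mitochondrial mRNAs. By the authors' FPKM, MT-CO2 and MT-CO3 of cytochrome c oxidase stood at means of 688 ± 288 and 649 ± 297 (SD, n = 6), and ATP5F1B, the catalytic beta subunit of ATP synthase, led the nuclear genes at 521 ± 17.9. COX8A (355 ± 11.1 FPKM) and NDUFS5 (280 ± 15.2 FPKM) came next among nuclear genes. The smallest levels of tested members were those of NDUFA4L2 (0.636 ± 0.137 FPKM), NDUFA7 (1.01 ± 0.424), NDUFV2 (2.99 ± 0.271) and NDUFA9 (3.36 ± 0.224). By this measure the mRNAs of partner subunits of the same complex differed over a wide range. It also depends on the gene lengths used, which are not given in the sources used here. NDUFA9 had 6731 counts over all libraries and NDUFV2 had 1623, although their FPKM were close. The SDs of the mitochondrial genes were far larger than those of the nuclear genes, and the values by library show how they were spread.

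**Figure D1:**
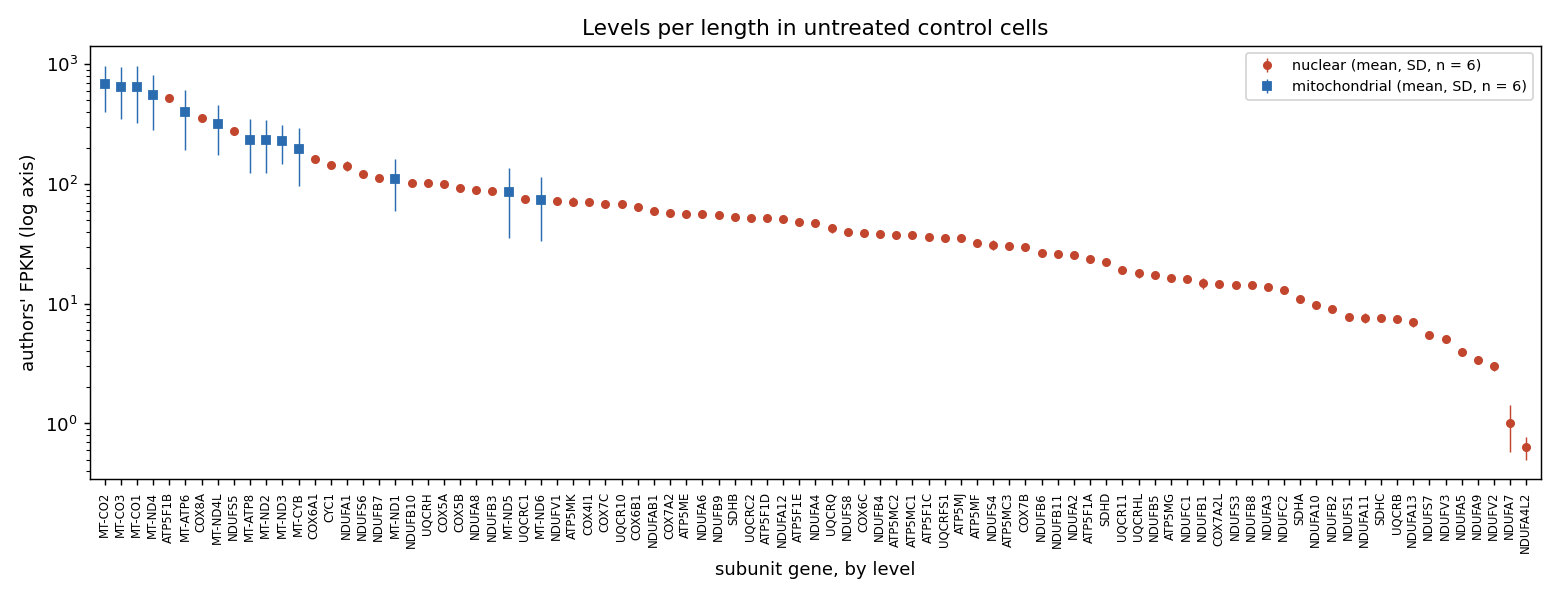
Mean levels of the tested subunits in the 6 untreated control libraries, in the authors' FPKM on a log axis, with genes in order of level, bars for the SD and colours for the genome that holds them. Mitochondrial genes lie between 73.98 and 688 FPKM on average, and ATP5F1B, at 521, is the highest nuclear gene.

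The 24 libraries fell into 2 replicate sets by their mitochondrial mRNA. In replicates 1 to 3 of all groups, the 13 mitochondrial mRNAs took 0.221 to 0.279% of all counts, and in replicates 4 to 6 they took 0.401 to 0.700%. Control replicate 6 was the highest of all libraries. In CPM, the count of a gene relative to the size of its library, scaled here between libraries by the TMM method, the 13 genes summed to 2279 to 2719 in the former and to 4064 to 7237 in the latter, a ratio of means of 2.32. The labels name no such sets, and what differed between them is not given in the sources used here. Because the sets were recognised by these reads, the difference is given as a description with no test.

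All 13 mitochondrial genes shared the difference between sets. Their log2 differences, replicates 4 to 6 minus 1 to 3, ran from 0.99 for MT-ND3 to 1.39 for MT-ND5 with a median of 1.2. The 77 tested nuclear subunits had a median of −0.04. The summed CPM of all 84 nuclear subunits was 8114 to 9713 in the first set and 7946 to 9190 in the second. The replicate set was therefore a term in every fit, and mitochondrial levels are given below for each set apart.

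**Figure D2:**
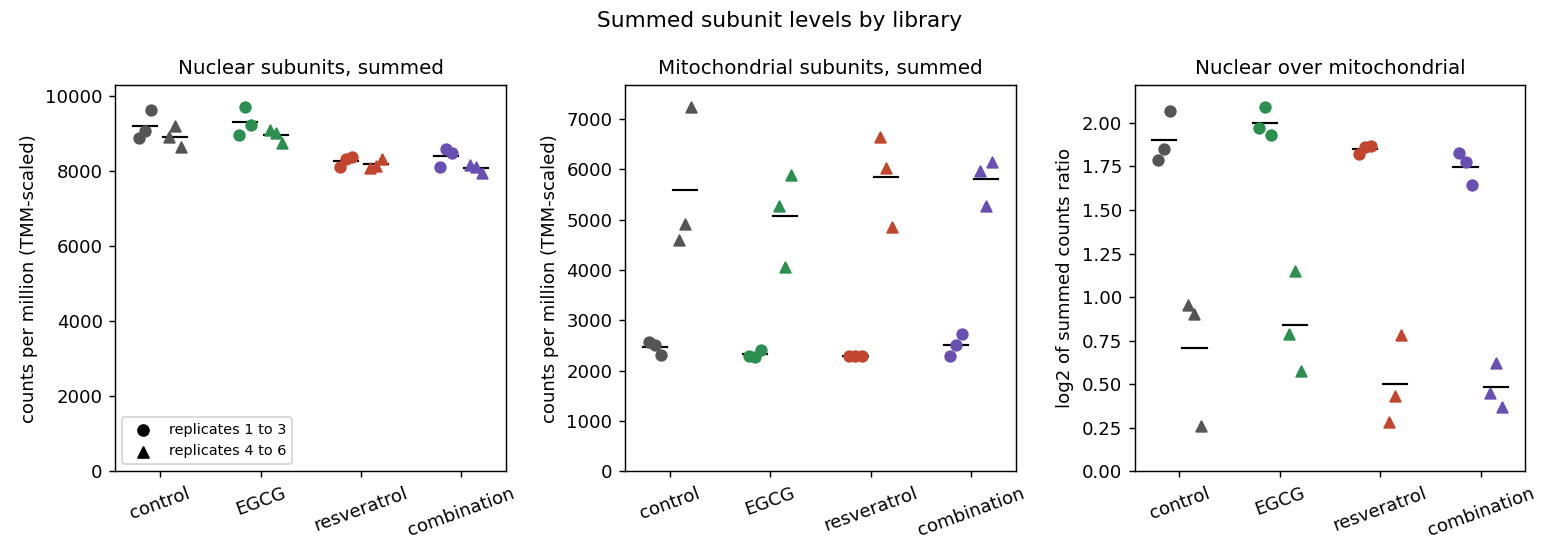
Summed CPM of the 84 nuclear subunits and of the 13 mitochondrial mRNAs, and the log2 ratio of their counts, in each of the 24 libraries by group, with symbols for the replicate set and lines for the mean of each group and set. The nuclear sums of all 12 libraries with resveratrol (at most 8581.6 CPM) lie under those of all 12 without it (at least 8653.7), although as shares of raw counts the groups overlap, and the mitochondrial sums split by replicate set.

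A gene was called where edgeR's quasi-likelihood test, fitted over all 24 libraries and adjusted by the Benjamini-Hochberg method over the 15476 tested genes, gave an adjusted p under 0.1 and an unadjusted p under 0.05. With EGCG alone, no subunit was called in either genome, where 2.21% of all tested genes were. The nuclear subunits had a median log2 change of 0.02, with 50 of 77 above 0, and all 13 mitochondrial mRNAs lay below 0, between −0.18 for MT-ND1 and −0.01 for MT-ND3. These mRNAs move together by library and are not 13 separate results. The log2 ratio of summed nuclear to mitochondrial counts was 0.11 higher with EGCG, and 0.0014 higher without control replicate 6. At an unadjusted p under 0.05 there were 3 nuclear members and no mitochondrial one, against 11.3% of all genes, and DESeq2 also called none. The 3 were NDUFA4L2 (log2 change 0.47 ± 0.17, SE), UQCR11 (0.13 ± 0.05) and SDHC (0.08 ± 0.03), with adjusted p of 0.255, 0.341 and 0.278 by edgeR with Benjamini-Hochberg adjustment, of which UQCR11 was chosen after its values were seen.

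With resveratrol, most of the nuclear subunits fell, by small amounts. Of 77 tested, 44 fell (57.1%) and 6 rose, while 28.6% of all tested genes fell and 29.4% rose. Their median log2 change was −0.12, against 0.00 over all tested genes, and the changes ran from −0.37 for NDUFAB1 to 1.10 for NDUFA4L2. In 24 of the 77, all 6 resveratrol libraries lay below all 6 controls, as they did in 15.8% of all genes, and in 3 they lay above, as in 15.3%. Scaled by library size alone, which moves the median of all genes by 0.09, 27 fell and 12 rose, against 18.9% and 40.3% of all genes, no gene that had fallen came to lie above 0, and all 27 were among the 44. Within replicates 1 to 3, 41 fell and 4 rose, where 22.6% and 23.2% of genes did, and within replicates 4 to 6, 34 fell and 5 rose, where 23.4% and 23.0% did. In cells sequenced in bulk, a lower share of RNA per cell and fewer cells of one state cannot be told apart.

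The combination against EGCG alone is the same step, adding resveratrol, in 12 other libraries. There 44 of 77 nuclear subunits fell (57.1%) and 5 rose, against 29.6% and 29.2% of all tested genes, with a median log2 change of −0.14. All 6 combination libraries lay below all 6 EGCG libraries in 25 genes and above in 1, where the backgrounds were 14% and 13.5%. By library size alone, 30 fell and 12 rose, against 21.4% and 37.7% of all genes. Within replicates 1 to 3, 39 fell and 1 rose (23.2% and 22.3% of genes), and within replicates 4 to 6, 36 fell and 3 rose (24.4% and 24.1%). The 2 comparisons share no library, and 40 of the 77 fell in both while 3 (NDUFA4L2, NDUFV1 and NDUFV3) rose in both, against 23.9% and 23.6% of all tested genes. Across the 77 genes (genes are no independent replicates) the log2 changes had a Pearson r of 0.84, and across all tested genes one of 0.869.

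The step of adding EGCG to resveratrol gave no called subunit. Between the combination and resveratrol alone, 0 nuclear and 0 mitochondrial members were called by edgeR, where 9.1% of all genes were. At an unadjusted p under 0.05, 9 nuclear and 1 mitochondrial member passed, against 19.5% of all genes, and DESeq2 called none. In replicates 1 to 3 alone 2 nuclear and 3 mitochondrial members were called, other settings called up to 2 and 4, and 13 of 24 fits with 1 library left out called 1 or 2 nuclear members. The combination against the control gave 40 nuclear subunits that fell and 6 that rose, against 30.3% and 30.4% of all genes, and 26 and 17 by library size alone, against 21.8% and 39.6%. Of the mitochondrial mRNAs 3 fell and 3 rose, and 0 and 4 by library size alone. For a departure of the combination from the sum of the single responses, 0 members were called (0.51% of all genes), although 5 mitochondrial mRNAs were called with every gene of at least 1 count kept, and all 13 lay above that sum, at a median log2 of 0.18. The 13 move together by library, so they are not 13 separate results. Control replicate 6 enters this sum, with 7237 mitochondrial CPM against 4595 and 4907 in control replicates 4 and 5. How far the 0.18 rests on that library was not tested. In simulated data the test of this departure recovered 44 of 100 genes changed 1.2-fold. Those genes were drawn from all tested genes and varied separately, so the figure does not hold for the mitochondrial mRNAs, which move together.

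Summed over all 84 nuclear genes, tested or not, nuclear subunit mRNA was lower in every library with resveratrol than in any without. In control libraries the sum was 8654 to 9635 CPM with a median of 8994, and in EGCG libraries 8754 to 9713 with a median of 9055. In resveratrol libraries it was 8081 to 8367 with a median of 8230, and in combination libraries 7946 to 8582 with a median of 8144. As shares of raw counts, with no scaling, the groups overlapped, at 0.837 to 0.934% in control and 0.826 to 0.866% with resveratrol.

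ATP synthase subunits fell in both comparisons that add resveratrol. Of 13 tested nuclear subunits of complex V, 12 fell with resveratrol and 11 with the combination against EGCG, none rose by either scaling, and the medians were −0.21 in both. By library size alone 8 and 11 fell. Of all tested genes, 28.6% were lower and 29.4% higher with resveratrol, and 29.6% and 29.2% in the combination against EGCG. By library size alone these shares were 18.9% and 40.3%, and 21.4% and 37.7%. They stand beside the counts of each complex below as well. ATP5F1B on chromosome 12 (chr12:56638175-56645984, minus strand), whose protein binds ATP in the catalytic head, had 1116, 1177 and 1223 CPM as lowest, median and highest control values and 968, 985 and 998 with resveratrol. The EGCG libraries had 1125, 1160 and 1243 CPM, and the combination libraries 941, 973 and 1029. Thus both groups with resveratrol lay wholly below both groups without it, by −0.25 ± 0.03 (SE, adjusted p 2.36e-11, edgeR with Benjamini-Hochberg adjustment) and −0.26 ± 0.03 on the log2 scale.

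ATP5F1D, the delta subunit of the central stalk, and ATP5MC3, 1 of 3 genes for the identical c subunit of the rotor ring, had the largest falls in complex V. ATP5F1D had 110, 116 and 122 CPM in control and 86.3, 92.8 and 96.6 with resveratrol, a log2 change of −0.33 ± 0.04 (adjusted p 2.23e-09, edgeR with Benjamini-Hochberg adjustment). ATP5MC3 had 194, 203 and 218 CPM in control and 162, 167 and 168 with resveratrol, a change of −0.30 ± 0.03. Neither gene overlapped between the groups, nor between the combination and EGCG, where they changed by −0.37 and −0.34. The c subunit is made from ATP5MC1, ATP5MC2 and ATP5MC3, and the first and second changed by −0.28 and −0.09 with resveratrol, both chosen after their values were seen, and ATP5MC2 was not called without control replicate 5 (−0.06). ATP5F1A, the alpha subunit, had 254, 262 and 270 CPM in control and 216, 234 and 236 with resveratrol (−0.18 ± 0.03). ATP5MK, a small membrane subunit, fell by 0.13 on the log2 scale with an adjusted p of 0.0528 (edgeR with Benjamini-Hochberg adjustment), which moved to −0.07 and was no longer called without control replicate 3. It was also not called without control replicate 5, resveratrol replicate 6 or EGCG replicates 1, 2, 4 or 6 (−0.10 to −0.11). The ATP synthase genes that the prefixes leave out stood as follows: ATP5PB (−0.33 ± 0.03), ATP5PF (−0.21) and ATP5PO (−0.18) fell, ATP5PD rose (0.10) and ATP5IF1, the inhibitor of the enzyme, changed by 0.02 and was not called.

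**Figure D3:**
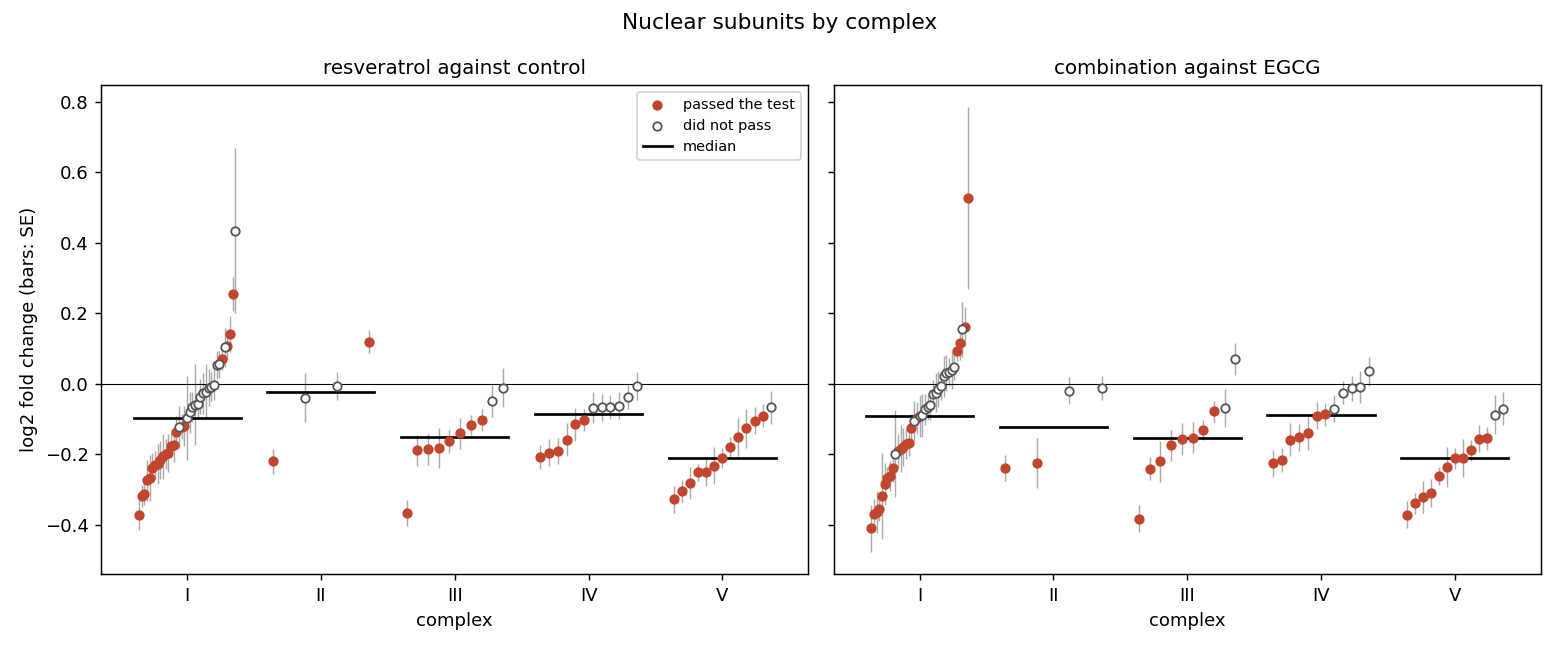
Log2 change of each tested nuclear subunit with resveratrol against control and with the combination against EGCG, by complex, with bars for the SE, filled points for genes that passed the test and lines for medians. Complex V has the lowest median, −0.21 in both comparisons, and NDUFA4L2, at 1.10 and 0.41, is not drawn.

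In complex III, 8 of 10 tested subunits fell with resveratrol and 8 with the combination against EGCG, and none rose. By library size alone 4 fell in each comparison, and 1 rose in the second. The Rieske iron-sulfur protein UQCRFS1 (chr19:29205320-29213151, minus strand), which takes electrons from ubiquinol, had 102, 110 and 117 CPM as lowest, median and highest control values and 82.2, 84.9 and 88.7 with resveratrol. Its EGCG libraries had 102, 109 and 113 CPM and its combination libraries 77.8, 83.8 and 88.0. All 12 libraries with resveratrol were below all 12 without it, at log2 changes of −0.37 ± 0.04 (adjusted p 4.85e-11, edgeR with Benjamini-Hochberg adjustment) and −0.38 ± 0.04. Cytochrome c1, CYC1, had 271, 283 and 304 CPM in control and 235, 255 and 266 with resveratrol, and changed by −0.16 and, in the combination against EGCG, −0.24. The core proteins UQCRC1 and UQCRC2 changed by −0.10 and −0.12. UQCRC1 in the combination against EGCG (−0.08) was not called without any 1 of EGCG replicates 1, 2 and 4, combination replicate 1 or control replicate 5 (−0.05 to −0.06). UQCRH, the hinge protein, and UQCRHL, a near-identical intronless copy, changed by −0.19 and −0.18, and reads of the 2 may be divided between them. Cytochrome c itself (CYCS), the carrier between complexes III and IV, fell by 0.20 on the log2 scale.

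In complex II, 1 of 4 subunits fell and 1 rose with resveratrol, with a median of −0.02, or 0.07 by library size alone, and SDHB fell in both independent comparisons. SDHB, the iron-sulfur subunit, had 124, 129 and 143 CPM in control, 124, 128 and 132 with EGCG, 108, 110 and 122 with resveratrol and 104, 107 and 114 in the combination libraries, with no overlap between groups with and without resveratrol. It changed by −0.22 ± 0.04 with resveratrol (adjusted p 1.41e-06, edgeR with Benjamini-Hochberg adjustment) and −0.24 in the combination against EGCG. SDHA, the flavoprotein that oxidises succinate, changed by −0.01 and −0.02 and was not called, and its sign turned by library size alone (0.08 with resveratrol). SDHC, a membrane anchor, rose by 0.12 with resveratrol (adjusted p 0.00219, edgeR with Benjamini-Hochberg adjustment) and changed by −0.01 in the combination against EGCG. SDHD, the other anchor, changed by −0.04 with resveratrol and −0.22 in the combination against EGCG, where combination replicate 3 stood at 35.4 CPM and the 5 others at 53.8 to 62.1. Without that library the fall was −0.12, still called, and that against control (−0.20) was −0.09 and not called.

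In complex IV, 6 of 12 tested nuclear subunits fell with resveratrol and 7 in the combination against EGCG, and none rose. By library size alone 3 fell in the first comparison and 2 in the second, while 1 rose in the second and 3 in the combination against control. The median with resveratrol, −0.08, was 0.00 by that scaling. COX7C had 128, 135 and 141 CPM as lowest, median and highest control values and 106, 117 and 123 with resveratrol, a change of −0.21 ± 0.03 (adjusted p 2.13e-06, edgeR with Benjamini-Hochberg adjustment). COX5A and COX6C, the latter on chromosome 8, changed by −0.19 each and COX4I1, the subunit that binds regulatory nucleotides, by −0.10, with lowest, median and highest control values of 328, 337 and 376 CPM and of 306, 323 and 326 with resveratrol. COX6C and COX4I1 in the combination against EGCG changed by −0.09 each, and without EGCG replicate 2 by −0.06 and −0.05, no longer called. COX4I1 was also not called without EGCG replicate 4 (−0.06), nor COX6C without EGCG replicate 6, combination replicates 1 or 3 or control replicate 5 (−0.07 to −0.08). COX5B changed by −0.07 with resveratrol, which was not called, and by −0.15 in the combination against EGCG. COX6A1 and COX8A, the 2 most abundant nuclear subunits of the complex per length, changed by −0.04 and −0.07 and were not called.

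Complex I, the largest, was mixed. With resveratrol, 17 of 37 tested nuclear subunits fell and 4 rose, and in the combination against EGCG 16 fell and 4 rose, while by library size alone 11 fell and 9 rose in each. The largest fall was that of NDUFAB1 (chr16:23581014-23596316, minus strand), the mitochondrial acyl carrier protein, which sits in complex I and also serves fatty acid synthesis inside mitochondria. It had 83.5, 91.8 and 101 CPM in control, 88.3, 93.1 and 100 with EGCG, 67.8, 71.2 and 75.5 with resveratrol and 65.6, 72.4 and 81.0 in the combination libraries. These did not overlap between groups with and without resveratrol, at −0.37 ± 0.04 (adjusted p 4.01e-10, edgeR with Benjamini-Hochberg adjustment) and −0.37 ± 0.04. NDUFS6, which closes the N-module of the enzyme, and NDUFB9 changed by −0.32 and −0.31 with resveratrol, and NDUFS4 by −0.27 and then −0.41 in the combination against EGCG.

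Several redox core subunits of complex I were not called with resveratrol. NDUFS1, NDUFS7, NDUFS8 and NDUFV2, which carry iron-sulfur clusters, changed by 0.06, −0.08, −0.01 and −0.06 with resveratrol, and none was called. Of these, NDUFS8 turned sign by library size alone (0.08), and NDUFV2 fell in the combination against EGCG (−0.32), a call lost without EGCG replicate 1 (−0.26). NDUFS3 fell by 0.17 on the log2 scale, with 50.1, 52.7 and 56.6 CPM in control and 43.1, 48.2 and 49.96 with resveratrol. NDUFV1, the flavoprotein that oxidises NADH, rose by 0.07 (adjusted p 0.0523, edgeR with Benjamini-Hochberg adjustment), with no overlap at 355 to 377 CPM in control and 381 to 394 with resveratrol, but was not called without control replicate 6 or resveratrol replicate 4 or 5 (0.06 to 0.07).

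The subunits that rose were NDUFA2, NDUFA8, NDUFV1 and NDUFV3 of complex I, SDHC, and NDUFA4L2. NDUFV3, a small accessory subunit, had 29.4, 32.9 and 35.1 CPM as lowest, median and highest control values and 36.3, 38.5 and 42.5 with resveratrol, a log2 change of 0.25 ± 0.05 (adjusted p 2.67e-05, edgeR with Benjamini-Hochberg adjustment). In the combination against EGCG it rose by 0.12, a call lost without combination replicate 6 (0.10). NDUFA2 and NDUFA8 rose by 0.14 and 0.11. NDUFA7 rose in the combination against EGCG (0.53 ± 0.26, adjusted p 0.0807 by edgeR with Benjamini-Hochberg adjustment) at 0.529 to 2.86 CPM over all libraries, and lost its call without any 1 of EGCG replicates 1, 2, 3 and 6, combination replicates 2, 3 and 6 and resveratrol replicate 2 (0.43 to 0.55).

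NDUFA4L2 (chr12:57234903-57240715, minus strand) had the largest change of all. Its protein is a paralog of NDUFA4, a subunit of complex IV, and it is known as a target of hypoxia-inducible factor. It had 1.45, 1.67 and 2.47 CPM as lowest, median and highest control values, 1.98, 2.36 and 3.02 with EGCG, 3.20, 3.96 and 4.26 with resveratrol and 3.04, 3.25 and 3.88 in the combination libraries. The resveratrol libraries lay above all controls, at a log2 change of 1.10 ± 0.15 or 2.14-fold (adjusted p 7.2e-08, edgeR with Benjamini-Hochberg adjustment), and the combination libraries above all EGCG libraries, at 0.41 ± 0.15 (adjusted p 0.0286). Its level per length stayed under that of NDUFA4 (47.5 ± 3.39 FPKM in control), which changed by −0.06 with resveratrol and was not called. Other members with restricted tissue use did not come into the tested range.

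Of the 13 mitochondrial mRNAs, 6 were called with resveratrol and 7 in the combination against EGCG. These calls rest on the set term, and the sets were recognised from the same reads. With no set term 0 were called in either comparison, and DESeq2 called 4 in the second. Against the control, 4 of 13 fell (MT-ND3, MT-CYB, MT-CO3 and MT-ND2; 30.8%, against 28.6% of all genes) and 2 rose (MT-ND6 and MT-ND5; 15.4%, against 29.4%), with a median log2 change of −0.03, where the nuclear median was −0.12. In the combination against EGCG, 6 rose (MT-ND6, MT-ND5, MT-ND1, MT-CO1, MT-ATP8 and MT-ATP6), or 46.2% against 29.2% of all genes, and MT-ND3 fell, with a median of 0.14 against −0.14 for nuclear subunits. By library size alone these counts were 4 higher and 1 lower, and 9 higher and 0 lower. Of all genes, 40.3% were higher and 18.9% lower by that scaling in the first comparison, and 37.7% and 21.4% in the second. Both comparisons put the 13 genes in nearly the same order, with a Pearson r of 0.986 over 13 genes that share libraries, although only 9 of the 13 had the same sign. Within replicates 1 to 3, 6 fell and 2 rose with resveratrol and 1 fell and 5 rose in the combination against EGCG, and within replicates 4 to 6 these were 1 and 3, and 0 and 5, beside shares of all genes between 22.3% and 24.4% in each direction. In none of the 13 did all 6 libraries lie apart in either comparison. Taken within each replicate set, 0 lay apart in both sets with resveratrol, against 18.0% of all genes in each direction. In the combination against EGCG, 1 lay above and 0 below in both sets, against 16.3% and 16.9% of all genes.

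MT-ND3, a core membrane subunit of complex I, fell most. In replicates 1 to 3 its control libraries had 51.0 to 69.1 CPM and its resveratrol libraries 34.4 to 41.4, which do not overlap, and in replicates 4 to 6 they had 81.8 to 128 and 75.4 to 97.3, which do. The log2 change was −0.38 ± 0.09 (adjusted p 0.000343, edgeR with Benjamini-Hochberg adjustment), and in the combination against EGCG −0.19 ± 0.09 (adjusted p 0.0622), a call that ended without any 1 of EGCG replicates 1, 2, 3, 4 and 6 and combination replicates 2, 3 and 5 (−0.14 to −0.18). The difference between the replicate sets in its response to resveratrol was not called (p 0.0448 before adjustment), where 0.0129% of all genes were.

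MT-ND6, the one mRNA of the 13 that is encoded on the other strand, and its neighbour MT-ND5 rose. MT-ND6 had 19.4 to 25.1 CPM in control and 24.7 to 28.2 with resveratrol in replicates 1 to 3, and 42.1 to 77.5 and 59.0 to 86.2 in replicates 4 to 6. MT-ND5 had 77.5 to 95.2 and 97.9 to 106 CPM in replicates 1 to 3, which do not overlap, and 161 to 317 and 232 to 339 in replicates 4 to 6, which do. Their log2 changes with resveratrol were 0.36 ± 0.11 (adjusted p 0.00469, edgeR with Benjamini-Hochberg adjustment) and 0.29 ± 0.10 (adjusted p 0.0125), and in the combination against EGCG 0.51 ± 0.11 and 0.48 ± 0.10. MT-ND5 and MT-ND6 abut on chrM at 14148 and 14149, and the strand setting of the counting is not given in the sources used here, so reads of the 2 strands may not be fully told apart.

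The falls of MT-CO3, MT-CYB and MT-ND2 rested on control replicate 6, the library with the most mitochondrial reads. MT-CO3 and MT-CYB, of complexes IV and III, changed by −0.21 each and MT-ND2 by −0.20 with resveratrol, with adjusted p of 0.0179, 0.038 and 0.0251 by edgeR with Benjamini-Hochberg adjustment. Without control replicate 6 they changed by −0.12, −0.09 and −0.11 and none was called, while MT-ND1, MT-CO1 and MT-ATP8 came to be called at 0.29, 0.24 and 0.155, MT-ND5 moved from 0.29 to 0.45, and MT-ND3 (−0.31) and MT-ND6 (0.53) remained called. MT-CYB and MT-ND2 also lost their calls without resveratrol replicate 6 (−0.16 and −0.15), and MT-ND5 was 0.19 without control replicate 4. In the combination against EGCG, MT-ATP6 and MT-ATP8 (0.18 and 0.20) changed by 0.11 each and were not called without EGCG replicate 5. MT-ATP6 was also not called without combination replicates 2, 3, 4 or 6 (0.15 to 0.19), nor MT-ATP8 without combination replicate 6 (0.16).

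**Figure D4:**
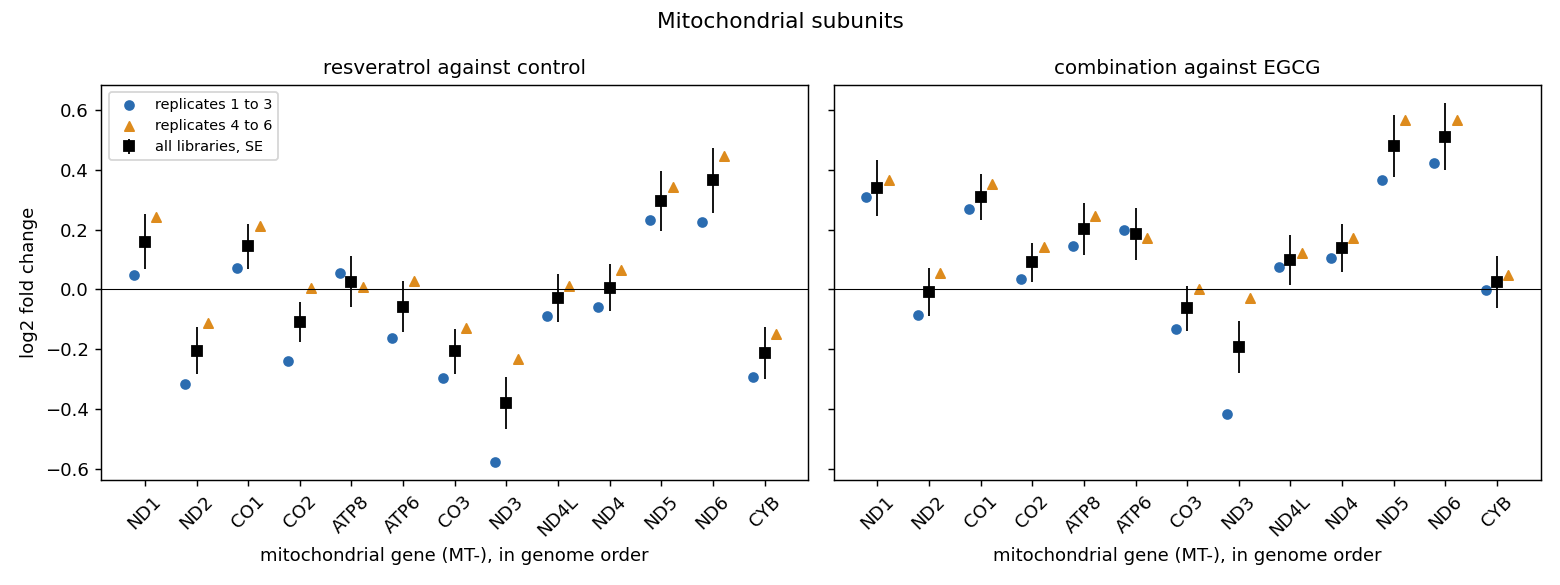
Log2 change of the 13 mitochondrial mRNAs, in genome order, with resveratrol against control and with the combination against EGCG, for all libraries (squares, bars for the SE) and within each replicate set. MT-ND3 is lowest in both comparisons, at −0.38 and −0.19, and MT-ND6 is highest, at 0.36 and 0.51.

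Shares within a library do not depend on its scaling, and for some of the 13 mRNAs they separated the groups where CPM did not. These shares are a description, with no test. Some of them still differed between the replicate sets. With EGCG, MT-ATP6 took 6.228 to 6.344% in the set with less mitochondrial mRNA and 6.954 to 7.059% in the set with more. MT-ND3 took 2.423 to 2.54% and 1.945 to 2.193% in the same sets. MT-CO1, the catalytic subunit of cytochrome c oxidase, took 24.0 to 25.9% of the mitochondrial mRNA counts in control libraries and 26.9 to 28.0% with resveratrol. It took 23.3 to 24.5% with EGCG and 26.3 to 27.3% with the combination, so that groups with and without resveratrol did not overlap in either set. MT-CO3 moved the other way, from 12.2 to 14.3% in control and 12.5 to 14% with EGCG to 10.8 to 11.6% with resveratrol and again 10.8 to 11.6% with the combination.

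MT-ND2 behaved as MT-CO3 did, with 5.77 to 6.45% in control, 5.57 to 6.41% with EGCG, 5.10 to 5.55% with resveratrol and 5.02 to 5.52% with the combination. MT-CYB took 5.26 to 5.77% in control and 4.70 to 4.97% with resveratrol, but 5.51 to 5.97% with EGCG and 4.93 to 5.62% with the combination, which overlap. MT-ND6 took 0.844 to 1.07% in control and 1.077 to 1.35% with resveratrol, but 0.850 to 1.114% with EGCG and 1.023 to 1.346% in the combination libraries, which overlap. The shares of MT-CO1, MT-CO3 and MT-ND2 thus lay apart in both independent comparisons, control replicate 6 included. Those of all other mitochondrial mRNAs overlapped in at least 1 of them. The share of MT-ND3 overlapped in both, at 1.67 to 2.69% in control and 1.46 to 1.80% with resveratrol. With EGCG it was 1.945 to 2.54%, and with the combination 1.416 to 2.043%. The share of MT-ND5 overlapped with resveratrol (3.016 to 4.381% in control, 4.269 to 5.104%).

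**Figure D5:**
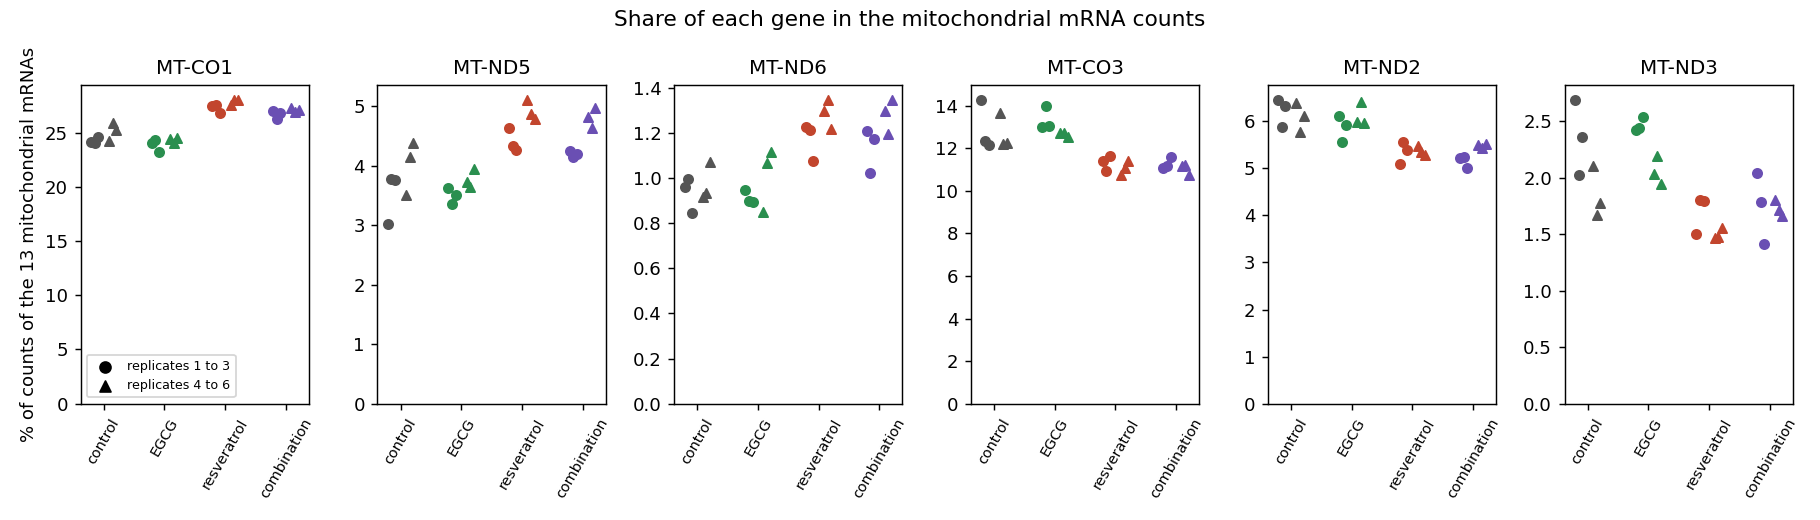
Share of 6 mitochondrial mRNAs among the counts of the 13, in percent, in each library by group, with symbols for the replicate set. MT-CO1 is at least 26.26 percent in every library with resveratrol and at most 25.88 in every library without, and MT-CO3 is at most 11.63 percent with resveratrol and at least 12.17 without.

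The mitochondrial ribosomal RNAs, which are not among the 97 and were chosen after their values were seen, rose in the same libraries. With resveratrol, MT-RNR1 and MT-RNR2 changed by 0.72 ± 0.07 and 0.60 ± 0.07 on the log2 scale (adjusted p 3.85e-12 and 2.63e-10, edgeR with Benjamini-Hochberg adjustment), and in the combination against EGCG by 0.69 and 0.73. Libraries with poly(A) selection hold a small part of these RNAs. With EGCG alone they changed by 0.11 and 0.06 and were not called, while in the combination against resveratrol MT-RNR2 rose by 0.20 (adjusted p 0.0522, edgeR with Benjamini-Hochberg adjustment) and MT-RNR1 changed by 0.08 and was not called.

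Nuclear and mitochondrial subunits were set against each other by the log2 ratio of their summed counts in each library, again with no test. The ratio was 1.90 in control libraries 1 to 3 and 0.71 in 4 to 6, 2.0 and 0.84 with EGCG, 1.85 and 0.50 in the resveratrol libraries, and 1.75 and 0.48 in those of the combination. Averaged over sets, it was 0.13 lower with resveratrol than in control and 0.30 lower in the combination than with EGCG, beside an SD of 0.211 among libraries of the same group and set. Only the combination against EGCG in replicates 1 to 3, at −0.25, had no overlap between libraries, while in replicates 4 to 6, at −0.36, the libraries overlapped.

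Part of the mitochondrial signal lies in nuclear copies of mitochondrial DNA. Of 404 annotated copies of the 13 genes, 62 had counts, and their sum was 24.0 to 26.6% of the mitochondrial mRNA counts in every library. A block of them lies on chromosome 1 between 629062 and 634922, where MTCO1P12 had 100556 counts over all libraries beside 213700 for MT-CO1, and MTCO3P12 had 21493 beside 98320 for MT-CO3. The stretches below, from GRCh38, show how little the copies differ from the genes. They are MT-CO3 at chrM:9224-9283 and its copy at chr1:634393-634452, both on the plus strand, and the first bases of MT-ND4 at chrM:10760-10819, plus strand, and its copy at chr5:134927977-134928036, minus strand, with the differing bases in capitals.
MT-CO3: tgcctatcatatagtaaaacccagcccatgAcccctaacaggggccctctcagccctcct
MTCO3P12: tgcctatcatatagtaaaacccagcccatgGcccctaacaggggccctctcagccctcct
MT-ND4: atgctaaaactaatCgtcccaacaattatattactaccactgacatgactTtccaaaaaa
MTND4P12: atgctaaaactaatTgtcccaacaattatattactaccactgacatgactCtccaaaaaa

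MTCO3P12 matched MT-CO3 in all but 10 of 547 bases (98.2% identity), and MTND4P12 matched MT-ND4 at 95.7%. Windows of 50 bases, the length of a read, were found whole in nuclear copies for 49.5% of MT-CO1, 46.7% of MT-ATP6, 43.6% of MT-ND2 and 30.6% of MT-CO3, but for 4.8% of MT-ND5, 1.2% of MT-CYB and none of MT-ND3 or MT-ND4L. So MT-ND3, the gene with the largest fall, holds no such window, while how reads shared by MT-CO1 and its copy were placed is not given in the sources used here. The copies changed as their genes did, with MTCO1P12 at 0.16 with resveratrol and 0.33 in the combination against EGCG beside 0.14 and 0.31 for MT-CO1, and MTCO3P12 at −0.21 with resveratrol beside −0.21 for MT-CO3. Adding the copies to the mitochondrial sum moved no difference in the log2 ratio beyond the spread of the libraries. As the copies held nearly the same share of the mitochondrial counts in every library, these differences could hardly move, and nothing follows from it.

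The nuclear subunits are known for promoters with sites of NRF1, ETS factors of the GABP type and YY1. In RefSeq windows of 300 bases around transcription starts (GRCh38.p14), 61 of the 77 tested nuclear genes had 73 windows, searched on both strands and with no overlap between these motifs required or barred. The NRF1 motif, GCGCA and GCGC with any single base between, was in 20.5% of them, against 9.93% of the windows of all tested genes and 5.78% of all 35116 windows. CCGGAAG, the ETS motif, was in 26%, against 16.9% and 10.3%, and AAGATGGCG, the YY1 motif, in 11%, against 3.4% and 1.75%. Windows of subunits that fell in both independent comparisons held the NRF1 motif in 20.5% and those of the other subunits in 20.6%. For the ETS motif these shares were 20.5% and 32.4%, and for the YY1 motif 10.3% and 11.8%. The E-box CACGTG was in 2.56% of the former (1 of 39 windows) and 14.7% of the latter (5 of 34). It was in 8.22% of all 73 windows and in 9.29% of the windows of all tested genes. These splits were not tested.

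Upstream sequences of 3 subunits that fell, 250 bases up to the transcription start, are shown with the matches in capitals, as descriptions and not as sites. UQCRFS1 (chr19:29213152-29213401, minus strand) holds the NRF1 motif 31 bases before the start, NDUFA9 of complex I (chr12:4648864-4649113, plus strand, log2 change −0.27 with resveratrol, chosen for its sequence after its values were seen) 80 bases before, and SDHB (chr1:17054033-17054282, minus strand) the ETS motif 128 bases before. Both NRF1 matches read on the opposite strand.
UQCRFS1: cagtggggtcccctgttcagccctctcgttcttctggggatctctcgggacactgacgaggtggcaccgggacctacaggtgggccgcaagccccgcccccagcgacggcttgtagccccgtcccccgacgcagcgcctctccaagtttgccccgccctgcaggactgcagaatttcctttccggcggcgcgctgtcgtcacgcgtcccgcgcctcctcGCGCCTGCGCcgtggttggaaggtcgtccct
NDUFA9: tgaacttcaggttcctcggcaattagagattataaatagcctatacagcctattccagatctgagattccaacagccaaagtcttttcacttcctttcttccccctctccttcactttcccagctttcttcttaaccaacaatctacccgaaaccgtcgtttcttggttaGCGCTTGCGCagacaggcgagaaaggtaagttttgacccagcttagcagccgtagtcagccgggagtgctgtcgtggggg
SDHB: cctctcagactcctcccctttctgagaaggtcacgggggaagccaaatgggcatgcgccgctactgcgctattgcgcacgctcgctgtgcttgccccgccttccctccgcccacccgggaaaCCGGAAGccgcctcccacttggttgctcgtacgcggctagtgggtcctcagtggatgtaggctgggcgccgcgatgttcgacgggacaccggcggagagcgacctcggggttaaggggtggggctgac

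The genes that switch on or serve these subunits were measured in the same fits, and their counts stand beside 28.6% of all genes lower and 29.4% higher with resveratrol (18.9% and 40.3% by library size alone), and 29.6% and 29.2% in the combination against EGCG. Of 12 regulators of mitochondrial biogenesis, 10 were tested, and 8 fell with resveratrol and 7 in the combination against EGCG, and none rose, but by library size alone 5 fell and 2 rose in the first and 6 and 2 in the second. NRF1, which binds the motif above, went from a mean of 21.9 ± 1.7 CPM (SD, n = 6) in control to 16.9 ± 0.68 with resveratrol, a log2 change of −0.37 ± 0.07 (adjusted p 1.64e-05, edgeR with Benjamini-Hochberg adjustment). GABPB1, the partner of the ETS factor GABPA, changed by −0.35, PPRC1 by −0.31 and ESRRA by −0.24. MYC changed by −0.09 with resveratrol and −0.02 in the combination against EGCG. PPARGC1A had too few counts to test.

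Of 29 factors of mitochondrial transcription and RNA handling, 17 fell and 1 rose with resveratrol, 12 and 4 by library size alone, and 18 fell and 3 rose in the combination against EGCG. SLIRP and LRPPRC, which form a complex that keeps mitochondrial mRNAs stable, went from 118 ± 6.6 to 88.7 ± 4.1 CPM and from 415 ± 7.3 to 340 ± 15 CPM, changes of −0.41 ± 0.04 and −0.29 ± 0.03. FASTKD3 and SSBP1 changed by −0.53 and −0.38. The polymerase POLRMT and the factor TFAM, which transcribe the mitochondrial genome, changed by −0.18 ± 0.06 and −0.14 ± 0.05.

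Of 79 tested proteins of the mitochondrial ribosome, which translates the 13 mRNAs, 58 fell and 2 rose with resveratrol, 37 and 8 by library size alone, with a median of −0.18, and 57 fell and 4 rose in the combination against EGCG. MRPL3 went from 186 ± 7.7 to 126 ± 5.0 CPM, a change of −0.56 ± 0.03 (adjusted p 4.45e-18, edgeR with Benjamini-Hochberg adjustment), and MRPS28 from 9.12 ± 1.6 to 5.99 ± 0.92 CPM (−0.60 ± 0.11). Of the assembly factors of the complexes, 17 of 51 were lower and 7 higher with resveratrol, or 11 and 14 by library size alone, at a median of −0.05 and 0.03. COX10, which makes the heme of complex IV, changed by −0.49, NDUFAF4 of complex I by −0.36 and COX14 by 0.33. With EGCG alone, 1 gene of these lists fell (MRPS30, −0.16) and 1 rose (PDK1, which restrains pyruvate entry into mitochondria, 0.43).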

How the data were processed

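RNA of 24 MDA686TU libraries was measured. Per the labels and the study's methods, the authors prepared stranded mRNA libraries, trimmed paired reads of 50 bases with Trimmomatic 0.36 and aligned them to GRCh38 with HISAT2 2.0.4 (versions from the submitters' processing notes). The authors deposited raw counts per gene and, separately, FPKM. The counting program, its strand setting, the annotation and the gene lengths are not given in the sources used here. Their table of normalized counts was not used. Gene names, positions and biotypes came from GENCODE v44, which matched 60261 of 60617 gene IDs, the rest staying in the fits unnamed.

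Library sizes were 7034872 to 11735574 counts, and no pair of libraries was identical. Counts were tested with edgeR 4.0.16 (limma 3.58.1, R 4.3.3) by the quasi-likelihood method with TMM scaling, a filter on low counts by group, and terms for group and replicate set (replicates 1 to 3 or 4 to 6). The biological coefficient of variation was 4.06%. p-values were adjusted by the Benjamini-Hochberg method over 15476 genes, and a call required an adjusted p under 0.1 and p under 0.05. SEs were computed from the log2 change and its F statistic. FPKM served to compare levels between genes and to sum cell type markers. On data simulated for resveratrol against control over 15476 genes, edgeR recovered 81 of 100 genes changed 1.2-fold and 100 of 100 changed 1.5-fold, while the interaction recovered 44 and 96, and the difference between sets in the response to resveratrol 17 and 72.

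Alternatives were DESeq2 1.42.0, DESeq2 size factors, library size alone, other filters and thresholds, no set term, the replicate number as a block, each set alone, and each library left out. Same-numbered libraries deviated together little, with 0 or 1 of 6 correlations over 0.1 in each comparison. For deviations from group means the medians were 0.013 to 0.056, the lowest value −0.009 and the highest 0.116. From group and set means the medians were 0.006 to 0.026, the lowest value −0.042 and the highest 0.064. The medians were small though all above 0, and the numbers were not taken as pairs.

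The members and the other lists were chosen with earlier results of these data known. One member is counted but not reported here by name. Named genes were all mitochondrial mRNAs, among calls the 5 that rose and the 5 that fell furthest in each comparison, the 2 most abundant nuclear subunits of each complex, tissue isoforms, the catalytic core, and up to 5 called genes of each other list with PPARGC1A, TFAM, POLRMT, LRPPRC and MYC. Promoters came from RefSeq (GRCh38.p14), and 61 of 77 tested nuclear subunits matched.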

Additional observations from a re-analysis of the deposited data

Results flagged for a closer look

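In 224 combinations of a named gene and a group of 6 libraries, 16 had 1 library set apart from the others by Dixon's criterion, where chance sets apart about 5% of them. Values are CPM. Resveratrol and control libraries gave SDHA in resveratrol replicate 3 (90.1 against 95.6 to 98.8), ATP5F1A in resveratrol replicate 4 (216 against 229 to 236), NDUFV1 in control replicate 6 (355 against 371 to 377) and ATP5MK in control replicate 3 (77.6 against 61.4 to 66.5). EGCG libraries gave NDUFC1 in replicate 5 (29.7 against 31.7 to 32.3), UQCRC1 in replicate 6 (228 against 249 to 256), COX6A1 in replicate 2 (238 against 212 to 221) and ATP5F1A in replicate 3 (245 against 256 to 260).

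Combination replicate 3 was set apart in SDHD (35.4 against 53.8 to 62.1), ATP5MK (46.7 against 58.0 to 63.1) and SDHA (100 against 90.1 to 93.6). Combination replicate 4 was set apart in NDUFS3 (43.5 against 47.1 to 49.1), SDHC (121.0 against 109.0 to 113.0) and NDUFA4L2 (3.88 against 3.04 to 3.29). The others were NDUFV2 in combination replicate 6 (9.04 against 5.49 to 6.41) and UQCRHL in combination replicate 1 (32.5 against 35.7 to 37.5). The fall of SDHD in the combination is given with and without replicate 3. The same library also stood apart in NDUFC2, a complex I subunit outside the named genes and chosen after its values were seen, at 10.2 against 28.3 to 32.8.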

How the results depend on the processing

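Of 191 values recomputed under other settings (libraries left out not included), 172 stayed within the limits set for them and 19 moved. Counts of calls here pool both directions. By library size alone nuclear subunits that fell went from 44 to 27 with resveratrol, 40 to 26 with the combination and 44 to 30 in the combination against EGCG, and those that rose from 6 to 12, 6 to 17 and 5 to 12. Mitochondrial calls went to 0 with no set term for resveratrol, for the combination against control and for the combination against EGCG. For the combination against control they were 2 by DESeq2, 3 at an adjusted p under 0.05, 3 under a filter of 10 counts in each library, 3 with only the groups compared in the fit and 2 in replicates 4 to 6, in place of 6, and for the combination against EGCG 4 by DESeq2 in place of 7. With every gene of at least 1 count kept, mitochondrial calls were 6 for EGCG, 4 for the combination against resveratrol, 5 for the interaction and 1 for the difference between sets in the combination, in place of 0. Nuclear calls between the combination and resveratrol were 1 with DESeq2 size factors, 2 with the stricter filter, 2 with every gene kept and 2 in replicates 1 to 3, where mitochondrial calls were 3, in place of 0. By library size alone SDHA and NDUFS8 turned sign with resveratrol, to 0.082 and 0.081. The cause of these moves was not tested.

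With the replicate block, nuclear and mitochondrial calls were 0 and 0 for EGCG, 51 and 8 for resveratrol, 47 and 6 for the combination, 1 and 0 against resveratrol, 51 and 7 against EGCG, and 0 and 0 for the interaction. The replicate numbers were not taken as pairs.

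With each library left out in turn, nuclear calls ranged from 48 to 53 for resveratrol, 44 to 50 for the combination, 0 to 2 against resveratrol and 46 to 50 against EGCG. Mitochondrial calls ranged from 6 to 7, 3 to 7, 0 to 1 and 5 to 8. Calls for EGCG, the interaction and the differences between sets stayed at 0. The log2 ratio of nuclear to mitochondrial counts changed by 0.0014 to 0.18 with EGCG, −0.24 to −0.067 with resveratrol, −0.30 to −0.13 with the combination, −0.11 to 0.011 against resveratrol and −0.37 to −0.22 against EGCG.

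These are mRNA levels of 1 cell line at 1 time. MT-ND4L with MT-ND4 and MT-ATP8 with MT-ATP6 share bases, so their counts are uncertain, as are those of genes with nuclear copies.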
